A study of Mus musculus with 4 samples.

Results

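The genes described here are 8 transcription factors known for setting or modulating hepatocyte identity, taken by name from the 37315 genes counted in mouse liver. They are the forkhead factors Foxa1, Foxa2 and Foxa3, the CCAAT/enhancer-binding proteins Cebpa, Cebpb and Cebpd, the cut-homeodomain factor Onecut2 and the prospero-type homeodomain factor Prox1. All 8 were found and all 8 passed the filter on low counts. RNA sequencing of liver tissue covered 2 libraries from mice carrying a synonymous Foxo1 mutation (called mutant here) and 2 from wild type mice, all of strain C57BL/6 and 23 weeks of age. A synonymous mutation changes a codon but not the amino acid it encodes. Its site, the sex, the feeding state and the hour of sampling could not be read from the labels. Whether each library is a different animal is not stated either, so a p-value here weighs a difference against the spread of these libraries alone, and that spread may be technical.

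Hepatocyte identity rests on a small network of factors that bind each other's genes and the enhancers of secreted proteins and metabolic enzymes. FOXA proteins are pioneer factors, able to bind nucleosomal DNA and open it for others. Their forkhead domain is related to that of FOXO1, and both can bind the same insulin response elements. C/EBP alpha maintains the differentiated, quiescent hepatocyte. C/EBP beta and delta are induced by cytokines, glucocorticoids and cAMP, and dimerise with C/EBP alpha through a leucine zipper. ONECUT proteins act in liver and bile duct development, and PROX1 is a corepressor of bile acid synthesis that is also the master regulator of lymphatic endothelium.

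Total counts lay between 83594287 and 95908652 in mutant and between 73551737 and 80975687 in wild type libraries. Levels below are in CPM, counts scaled to the effective size of the library with TMM factors. Each log2 fold change sets mutant over wild type liver, so that a positive one means a higher level in mutant liver. Foxo1 itself was at 33.6 and 53.4 CPM in mutant libraries and at 44.0 and 54.8 CPM in wild type libraries, with overlapping groups. Hepatocyte markers were abundant in every library. Their 11 measured members (albumin, Apoa1 and others) summed to 111786 and 108912 CPM in mutant and 112625 and 127974 CPM in wild type libraries, and none of the tools (edgeR, DESeq2, limma-voom) called any of them, nor did any reach an unadjusted p below 0.05. Bile duct markers summed to 53.7 and 52.3 CPM in mutant and 54.9 and 52.2 CPM in wild type libraries. Pancreatic markers stayed below 0.5 CPM in sum, with Cpa1, Ins2 and Pdx1 at 0.

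Sequence upstream of the transcription start was available from RefSeq (GRCm38.p6, the build of mm10) for 6 of the 8 genes, Cebpa, Cebpb, Foxa1, Foxa2, Foxa3 and Prox1. The 250 bases before each start were searched on both strands for TGTTTAC (a forkhead core that FOXA and FOXO proteins share), TGTTTGC (a FOXA variant), TTGCGCAA (the C/EBP palindrome), TTGCNNAA (a looser C/EBP form that includes the palindrome), ATCAAT (a core for ONECUT), TGACG (a core of the cAMP response element) and TTCNNNGAA (STAT). Among 32851 such windows of all genes, 3.17% held TGTTTAC, 4.30% TGTTTGC, 0.16% the palindrome, 9.56% the looser C/EBP form, 6.72% ATCAAT, 17.77% TGACG and 7.02% the STAT form. The 4 windows below include those of the member with the largest log2 fold change over all 4 libraries (Foxa2) and of highest level (Cebpa). The others belong to the members whose windows held TGTTTAC (Foxa1) or cAMP cores (Cebpb). A Prox1 window that held TGTTTGC is not printed. Capitals mark the motif matches, and each runs 5′ to 3′ on the strand of the gene.
Foxa2, minus strand, chr2:148046970-148047219: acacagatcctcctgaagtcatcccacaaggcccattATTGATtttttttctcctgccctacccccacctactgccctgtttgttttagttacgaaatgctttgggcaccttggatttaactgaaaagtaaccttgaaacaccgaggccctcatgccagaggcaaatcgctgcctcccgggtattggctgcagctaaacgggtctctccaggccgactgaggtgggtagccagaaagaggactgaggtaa
Foxa1, minus strand, chr12:57546112-57546361: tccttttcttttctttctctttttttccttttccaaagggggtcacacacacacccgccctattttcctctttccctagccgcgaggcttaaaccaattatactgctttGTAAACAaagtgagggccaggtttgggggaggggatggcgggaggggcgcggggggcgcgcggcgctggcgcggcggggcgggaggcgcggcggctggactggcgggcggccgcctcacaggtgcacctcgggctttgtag
Cebpb, plus strand, chr2:167688665-167688914: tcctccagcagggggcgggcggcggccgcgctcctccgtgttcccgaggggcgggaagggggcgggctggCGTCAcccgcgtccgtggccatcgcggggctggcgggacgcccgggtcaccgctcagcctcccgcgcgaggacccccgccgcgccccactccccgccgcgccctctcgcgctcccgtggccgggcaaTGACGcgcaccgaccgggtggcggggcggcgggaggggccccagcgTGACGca
Cebpa, plus strand, chr7:35119043-35119292: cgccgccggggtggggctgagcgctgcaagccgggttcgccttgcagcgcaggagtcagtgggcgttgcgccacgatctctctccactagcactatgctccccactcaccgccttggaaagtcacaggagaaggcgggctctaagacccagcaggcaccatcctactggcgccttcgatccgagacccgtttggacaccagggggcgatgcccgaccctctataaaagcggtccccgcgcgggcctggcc

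The Foxa2 window, upstream of the most distal of its 3 annotated starts, held 1 match to the ONECUT core, 213 to 208 bases before the start. The windows of its other starts, not printed, held 0 matches to the 7 motifs. The match in Foxa1 to the core shared by FOXA and FOXO lay 141 to 135 bases before the RefSeq start, which is internal to the gene as GENCODE annotates it, and 10 bases of that window are exonic there. Cebpb, a gene inducible by cAMP, held 3 cAMP cores, the nearest 7 to 3 bases before the start. A TGTTTGC lay 120 to 114 bases before the downstream start of Prox1, in a window of which 118 bases are exonic in GENCODE. The other Prox1 window and the windows of Cebpa and Foxa3 held 0 matches to these 7 motifs. A match is a string of letters in a window and was not tested as a binding site.

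Levels of different genes were compared as CPM per kb of exon, over all annotated exons of a gene. Cebpa was the most abundant of the 8 at 65.2 ± 4.34 CPM per kb (SD over all 4 libraries), 5.08 times the next gene, Prox1, at 12.8 ± 1.70. Foxa3 followed at 9.33 ± 1.34 and Foxa2 at 8.30 ± 1.84 CPM per kb. Cebpb stood at 5.43 ± 1.004, Onecut2 at 5.02 ± 1.03, Foxa1 at 3.58 ± 0.399 and Cebpd at 0.775 ± 0.0966 CPM per kb. The ranges over the 4 libraries did not overlap between Cebpa and Prox1, between Onecut2 and Foxa1, or between Foxa1 and Cebpd. Prox1 and Foxa3, Foxa3 and Foxa2, Foxa2 and Cebpb, and Cebpb and Onecut2 overlapped in range. Library by library, Foxa2 was above Cebpb in all 4, and its mean was 1.53 times as high. In each other pair the first-named gene was the higher in 3 of 4 libraries, and these pairs are not set apart by level. Cebpa was first, Foxa1 seventh and Cebpd last in each of the 4 libraries.

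**Figure D1:**
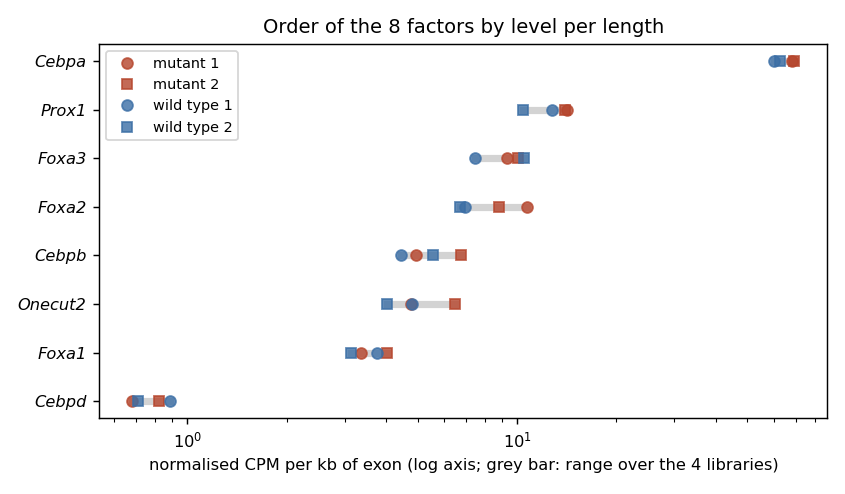
Level of each factor in CPM per kb of exon on a log axis, 1 point per library (mutant red, wild type blue), with the range over the 4 libraries as a grey bar. Cebpa lies at 60.3 to 69.4 and Cebpd at 0.681 to 0.888 CPM per kb. Among the genes ranked from 2 to 6, bars of adjacent rank overlap.

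The order of the middle ranks depended on the length used. Onecut2 has a 16234-base transcript of which 1515 bases are coding, and per kb of coding length it took rank 2 (53.8 CPM per kb) ahead of Prox1 (48.7), with Cebpa still first (159) and Cebpd last (3.61). Among the tested genes with an annotated length, all but 168 of 14657, Cebpa stood at the 96.2 percentile of level per kb, Prox1 at 85.7, Foxa3 at 81.2, Foxa2 at 79.4, Cebpb at 71.8, Onecut2 at 70.2, Foxa1 at 63.0 and Cebpd at 32.3. Among 34 liver transcription factors, made up of the 8 and 26 listed others, Cebpa ranked 5, behind Hnf4a (the nuclear receptor at the centre of the hepatocyte network, 125 CPM per kb), Atf5 (97.3), Mlxipl (67.1) and Creb3l3 (65.8). Cebpd ranked 32 of these 34.

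Over the 8 genes, 0 passed an adjusted p below 0.05 (Benjamini-Hochberg, over all 14657 genes tested) in edgeR, DESeq2 or limma-voom, where 0.341% of all tested genes passed in edgeR, 0.764% in DESeq2 and 0.0478% in limma-voom. At an unadjusted p below 0.05 there were 2 of 8, Foxa2 and Prox1, against a background of 6.19%; both were higher in mutant liver, where the background was 3.97%. The groups did not overlap in 3 of 8, Foxa2, Cebpa and Prox1, against 34.1% of all tested genes, a share near the background. All 3 were higher in mutant liver, where 17.0% of tested genes lay. The log2 fold change was positive in 7 of 8, against 49.7% of all tested genes, and its median was 0.19 over the 8 and −0.0013 over all tested genes. RLE and upper-quartile scaling left the direction of all 8 as given here.

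**Figure D2:**
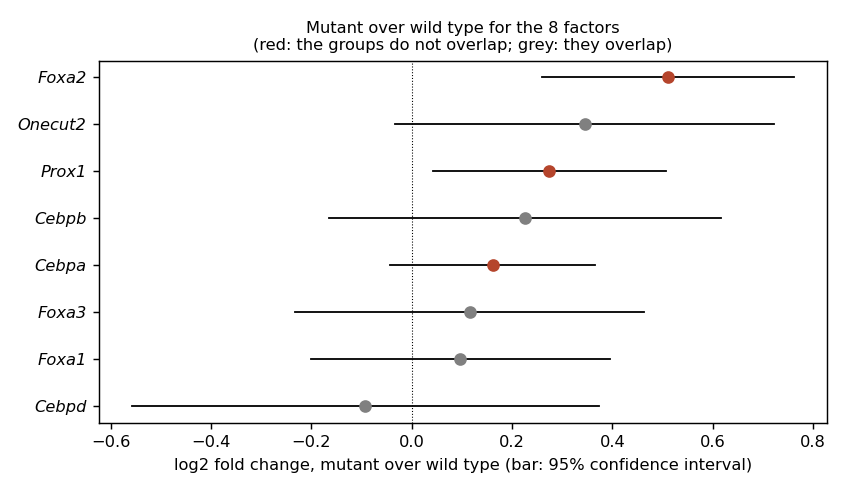
Log2 fold change of each factor, mutant over wild type, as a point with its 95% confidence interval from the edgeR fit; red points are genes whose groups do not overlap. The intervals of Foxa2 (0.26 to 0.76) and Prox1 (0.042 to 0.51) lie above 0, before adjustment for the number of genes tested.

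With all 4 libraries, Foxa2 had the largest log2 fold change of the 8, an order that rested on mutant replicate 1. Without that library Onecut2 (0.55) and Cebpb (0.44) exceeded Foxa2 (0.36). The Foxa2 level was 25.3 and 20.9 CPM in mutant libraries, against 16.5 and 15.97 CPM in wild type libraries. Both mutant libraries lay above both wild type libraries, and mutant replicate 1 was the highest. The means were 23.1 ± 3.14 CPM in mutant and 16.2 ± 0.363 CPM in wild type liver (SD, n = 2 each), a 1.42-fold difference with a 95% confidence interval of 1.20 to 1.70. The log2 fold change of 0.51 (SE 0.12) had an unadjusted p of 0.000796, the 83rd smallest of 14657, and did not pass after Benjamini-Hochberg adjustment over all genes tested (edgeR quasi-likelihood test, adjusted p = 0.141). DESeq2 gave an adjusted p of 0.0527 and limma-voom 0.306. Without the filter on low counts, which raised the number of tested genes to 23104, the edgeR adjusted p of Foxa2 was 0.00108. In that setting 258 of all 23104 genes passed, against 50 of 14657 with the filter.

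The other forkhead factors overlapped between groups. Foxa1 was at 11.2 and 13.4 CPM in mutant libraries and 12.5 and 10.4 CPM in wild type libraries. Mutant replicate 2 was highest and wild type replicate 2 lowest, and the log2 fold change was 0.097 (95% confidence interval −0.20 to 0.40). Foxa3, which shares liver targets with the other FOXA factors, was at 19.0 and 20.5 CPM in mutant libraries and 15.2 and 21.3 CPM in wild type libraries. Here the wild type libraries held both the lowest and the highest value, and the log2 fold change was 0.12 (−0.23 to 0.46). The adjusted p was 1.0 for both in edgeR. The sign turned for Foxa1 without wild type replicate 2 (−0.027) or mutant replicate 2 (−0.042), and for Foxa3 without wild type replicate 1 (−0.11).

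Summed per length, the FOXA family stood at 23.4 and 22.9 CPM per kb in mutant libraries and 18.2 and 20.4 CPM per kb in wild type libraries. That sum was 1.20 times as high in mutant as in wild type liver, with groups that did not overlap. Foxa2 made up 45.7% and 38.5% of it in mutant libraries, against 38.3% and 33.1% in wild type libraries, a difference of 6.38 percentage points. Foxa3 made up 39.9% and 43.9% in mutant and 41.0% and 51.5% in wild type libraries, and Foxa1 took 14.4% and 17.6% in mutant and 20.7% and 15.4% in wild type libraries. Mutant replicate 2 and wild type replicate 1 differed in Foxa2 share by less than the replicates of either group. The exact two-sided permutation test gave p = 0.333 for the sum and for the Foxa2 share, which is the smallest p that 2 against 2 libraries allow.

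**Figure D3:**
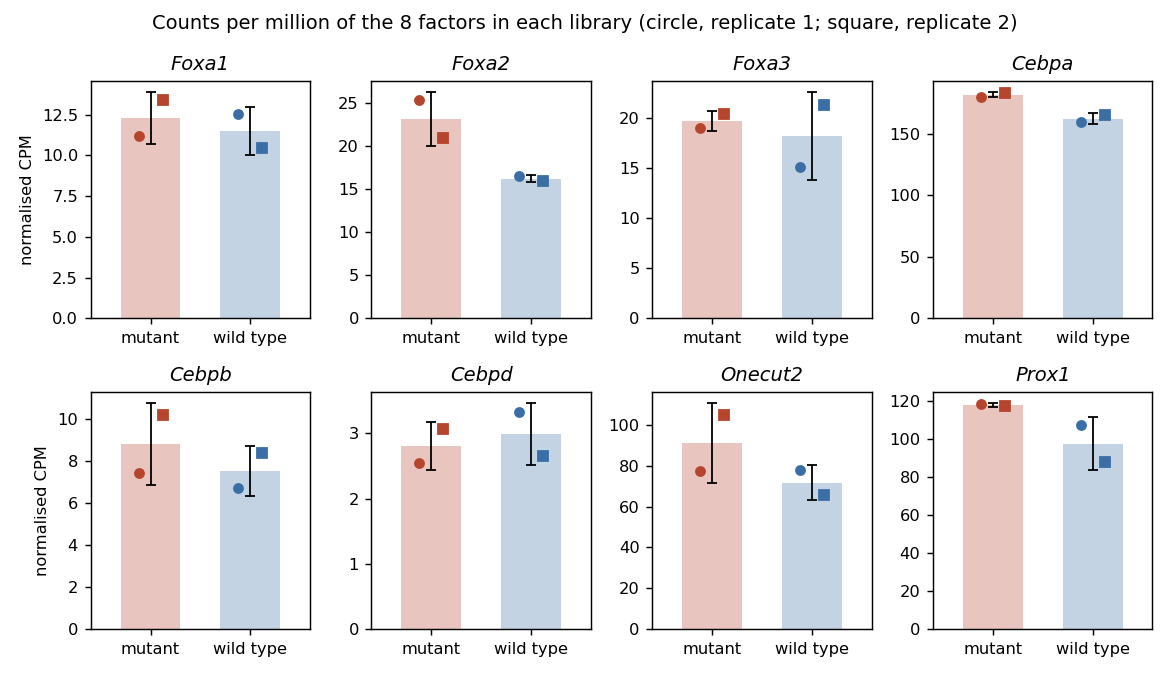
Normalised CPM of each factor in mutant (left, red) and wild type (right, blue) liver; points are libraries (circle, replicate 1; square, replicate 2), bars the mean and whiskers the SD of 2 libraries. For Foxa2, Cebpa and Prox1 both mutant points lie above both wild type points; for the other 5 genes the groups overlap.

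Cebpa had the tightest values of the 8. It was at 179.9 and 183 CPM in mutant libraries and at 159 and 165 CPM in wild type libraries. The replicates of a group lay within 0.057 on the log2 scale and the groups did not overlap, but the difference was small. Mutant liver averaged 181 ± 2.098 CPM and wild type liver 162 ± 4.52 CPM (SD, n = 2 each). The log2 fold change was 0.16 (SE 0.094, 95% confidence interval −0.044 to 0.37, edgeR adjusted p = 0.944), and the interval runs from 0.970-fold to 1.29-fold of wild type.

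The inducible members varied more between replicates than between groups. Cebpb was at 7.43 and 10.2 CPM in mutant libraries and 6.69 and 8.37 CPM in wild type libraries. In each group replicate 2 was the higher, by 0.46 on the log2 scale in mutant and 0.32 in wild type liver, against a log2 fold change of 0.23 (−0.17 to 0.62, edgeR adjusted p = 0.993). Cebpd, with 243 and 257 counts in mutant and 276 and 192 counts in wild type libraries, was at 2.55 and 3.07 CPM in mutant and 3.33 and 2.66 CPM in wild type libraries. It was the single member with a negative log2 fold change (−0.092, 95% confidence interval −0.56 to 0.37, edgeR adjusted p = 1.0), and the exact Poisson interval of 165.8 to 221 counts around its lowest library covers counting error only. The sign turned for Cebpb without mutant replicate 2 (−0.021), and for Cebpd without wild type replicate 1 (0.081) or mutant replicate 1 (0.036).

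Summed per length, the 3 C/EBP genes stood at 73.9 and 77.0 CPM per kb in mutant libraries and 65.7 and 69.0 CPM per kb in wild type libraries. Like the FOXA sum, it was higher in mutant liver (1.12 times) without overlap (exact two-sided permutation p = 0.333). Cebpa made up 92.4% and 90.1% of this summed level in mutant libraries and 91.9% and 90.9% in wild type libraries. Cebpb took 6.69% and 8.80% in mutant and 6.78% and 8.07% in wild type libraries, and Cebpd at most 1.35% in any library. The ratio of Cebpa to Cebpb per kb was 13.8 and 10.2 in mutant libraries and 13.6 and 11.3 in wild type libraries. These ranges overlapped (exact two-sided permutation p of 1.0, where the smallest possible is 0.333). Reads in the 51 bases of exon that Cebpa shares with the antisense gene Gm45091, the 312 that Cebpb shares with Tmem189 and the 562 that Cebpd shares with Spidr could not be assigned by strand, since the library kit does not mark it.

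**Figure D4:**
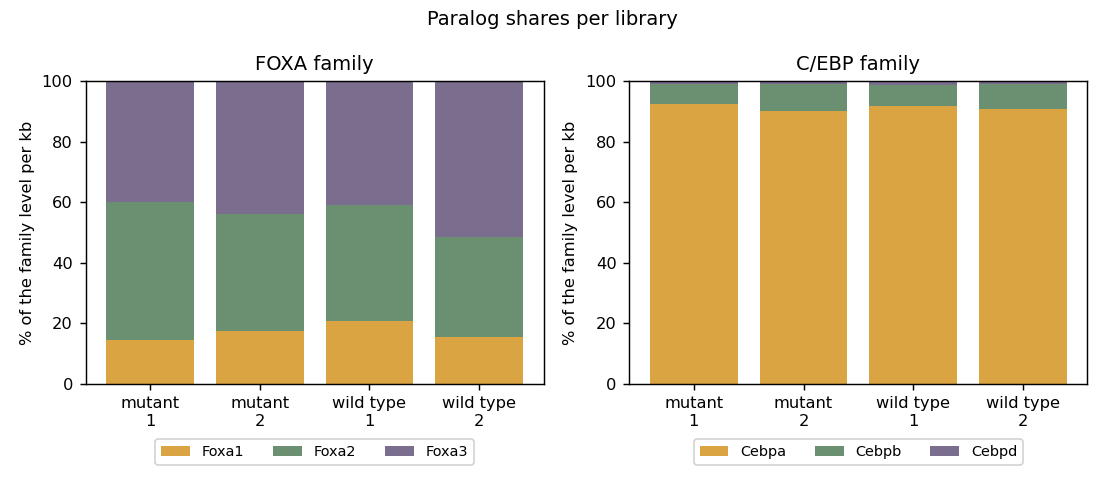
Share of each paralog in the summed CPM per kb of its family, in percent, 1 stacked bar per library with mutant libraries on the left. Foxa2 takes 38.5% to 45.7% of the FOXA level in mutant and 33.1% to 38.3% in wild type libraries, and Cebpa 90.1% to 92.4% of the C/EBP level in all 4.

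The homeodomain factors were both higher on average in mutant liver without passing the threshold. Prox1 was at 119 and 117 CPM in mutant libraries and at 107 and 87.6 CPM in wild type libraries. The mutant libraries nearly coincided, wild type replicate 2 was the lowest, and the groups did not overlap. Mutant liver averaged 118 ± 0.958 CPM and wild type liver 97.5 ± 13.96 CPM (SD, n = 2 each). The log2 fold change was 0.27 (SE 0.11, 95% confidence interval 0.042 to 0.51, edgeR unadjusted p = 0.0245, adjusted p = 0.663), and it was 0.14 without wild type replicate 2 and 0.43 without wild type replicate 1. Exons of Prox1 share 133 bases with the antisense gene Prox1os.

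Onecut2 was at 77.3 and 105 CPM in mutant libraries and at 77.9 and 65.7 CPM in wild type libraries. Mutant replicate 2 stood apart on the high side, while mutant replicate 1 lay just below wild type replicate 1. The log2 fold change of 0.34 (SE 0.16, 95% confidence interval −0.032 to 0.72, edgeR adjusted p = 0.879) was 0.10 without mutant replicate 2 and 0.55 without mutant replicate 1. It passed without the filter on low counts (edgeR adjusted p = 0.0423), where 258 of 23104 genes passed, although the groups overlapped. Its paralog Onecut1, which encodes HNF6, was named after its values were seen. Onecut1 was at 3.96 and 6.46 CPM in mutant libraries and 2.33 and 1.02 CPM in wild type libraries, without overlap. Its log2 fold change of 1.62 (SE 0.48, 95% confidence interval 0.34 to 2.91) did not pass in edgeR (adjusted p = 0.663) or limma-voom (0.306) and passed in DESeq2 (adjusted p = 0.00110).

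Lymphatic endothelial markers, measured because Prox1 is also expressed in lymphatic vessels, summed to 15.4 and 17.9 CPM in mutant and 19.2 and 17.6 CPM in wild type libraries. Most of that sum was Flt4, whose groups overlapped, as did those of Pdpn. Ccl21a and Mmrn1, named after their values were seen, were low and higher in both mutant libraries. Ccl21a was at 0.357 and 0.287 CPM in mutant and 0.181 and 0.235 CPM in wild type libraries. Mmrn1 had 20 and 8 counts in mutant and 7 and 2 counts in wild type libraries. Of 3 tested markers none was called by edgeR, DESeq2 or limma-voom or reached an unadjusted p below 0.05. In bulk tissue, a different number of cells of a type and a different amount of RNA per cell cannot be told apart.

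The other 26 liver-enriched transcription factors gave no call in edgeR. Of 25 tested, the log2 fold change was above 0 in 9 and below 0 in 16, and its median was −0.032. Hnf4a was at 580 and 679 CPM in mutant libraries and 572 and 581 CPM in wild type libraries (log2 fold change 0.13, edgeR adjusted p = 0.998). The carbohydrate-responsive factor Mlxipl was at 298 and 395 CPM in mutant libraries and 388 and 405 CPM in wild type libraries (−0.19, edgeR adjusted p = 0.976). At an unadjusted p below 0.05 in edgeR there were 2 of 25, against 6.19% of all tested genes. They were Onecut1 and the low-level Hnf4g, named after their values were seen. DESeq2 called 1 (Onecut1), against 0.764% of all tested genes, and limma-voom 0.

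C/EBP proteins act as dimers and are turned over through Tribbles adaptors and the ubiquitin ligase COP1. Of 9 tested genes for such partners and turnover factors, 5 lay above 0 and 4 below 0 in log2 fold change (median 0.021), and neither edgeR, DESeq2 nor limma-voom called one. The dimer partner Atf4 was at 92.5 and 91.6 CPM in mutant libraries and 80.3 and 86.0 CPM in wild type libraries, and Cop1 at 46.9 and 41.8 CPM in mutant and 44.0 and 41.4 CPM in wild type libraries. At an unadjusted p below 0.05 in edgeR were 2 of the 9, against 6.19% of all tested genes. Both were chosen here after their values were seen. Trib1, which targets C/EBP alpha for degradation, was at 28.0 and 33.8 CPM in mutant and 23.2 and 25.8 CPM in wild type libraries (log2 fold change 0.34, edgeR adjusted p = 0.5). Trib3 was at 2.85 and 3.02 CPM in mutant and 4.34 and 5.73 CPM in wild type libraries (−0.78, edgeR adjusted p = 0.191).

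Genes of the cytokine, glucocorticoid and cAMP inputs that induce Cebpb and Cebpd had a positive log2 fold change in 13 of the 13 tested, against 49.7% of all tested genes, with a median of 0.12. Some of these values lay near 0, such as Tsc22d3 (0.0023) and Jak1 (0.049), and the median SE over all tested genes was 0.148. Both mutant libraries lay above both wild type libraries in 3 of the 13, against 17.0% of all tested genes. The list holds 15 genes, and Il6 and Tnf were too low to be tested. Il6, an inducer of both genes, had 0 and 0 counts in mutant libraries and 10 and 5 counts in wild type libraries, and Tnf had 9 and 7 counts in mutant and 6 and 2 counts in wild type libraries. Of the 13 tested genes edgeR and limma-voom called 0 and DESeq2 called 1, Il1b, against 0.764% of all tested genes in DESeq2. The glucocorticoid-induced Tsc22d3 was at 137 and 174 CPM in mutant and 147 and 163 CPM in wild type libraries, and the cytokine receptor kinase Jak1 at 119 and 117 CPM in mutant and 114 and 114 CPM in wild type libraries. Before adjustment 2 of the 13 reached a p below 0.05 in edgeR, against 6.19% of all tested genes. These 2 were named, like Il6 and Tnf, after their values were seen. Socs3, the feedback inhibitor of STAT3, was at 5.30 and 4.71 CPM in mutant and 3.27 and 2.17 CPM in wild type libraries (edgeR adjusted p = 0.181). The cytokine gene Il1b was at 1.23 and 1.36 CPM in mutant and 0.506 and 0.360 CPM in wild type libraries (edgeR adjusted p = 0.144).

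Targets of the C/EBP factors were kept as an acute phase and a metabolic list. Acute phase targets are plasma proteins that C/EBP beta and delta induce in inflammation. Their log2 fold change was positive in 14 of 15, against 49.7% of all tested genes, with a median of 0.28. In 9 of 15 both mutant libraries lay above both wild type libraries, against 17.0% of all tested genes, and 1 of 15 rose past the threshold, where 0.280% of tested genes did. DESeq2 called 5 of the 15 and limma-voom 2, against 0.764% and 0.0478% of all tested genes. Before adjustment 6 reached a p below 0.05 in edgeR, against 6.19% of all tested genes. The gene that rose in edgeR was Orm2, an orosomucoid with close paralogs and so an uncertain count, at 44.5 and 46.7 CPM in mutant libraries and 9.72 and 13.3 CPM in wild type libraries (log2 fold change 1.99, edgeR adjusted p = 0.00110). Metabolic targets of C/EBP lay above 0 in 4 and below 0 in 7 of 11 tested (median log2 fold change −0.030); none was called by edgeR, DESeq2 or limma-voom, and 1 had an unadjusted p below 0.05. Among them albumin was at 67932 and 64783 CPM in mutant and 71504 and 80698 CPM in wild type libraries, and the urea cycle enzyme Cps1 at 5818 and 5554 CPM in mutant and 4652 and 5660 CPM in wild type libraries.

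FOXA targets likewise lay above 0 in 4 and below 0 in 7 of 11 tested (median log2 fold change −0.077), without a call in edgeR, DESeq2 or limma-voom and without an unadjusted p below 0.05. The fetuin gene Ahsg was at 6611 and 6887 CPM in mutant and 6441 and 6426 CPM in wild type libraries. Targets of PROX1 and ONECUT factors, 7 genes that include Foxa2 and Onecut1, had a median log2 fold change of 0.065. Neither edgeR nor limma-voom called one, and DESeq2 called 1 (Onecut1), against 0.764% of all tested genes. At an unadjusted p below 0.05 in edgeR were 3, against 6.19% of all tested genes. The bile acid enzyme Cyp8b1 was at 640 and 432 CPM in mutant and 436 and 568 CPM in wild type libraries, and the gluconeogenic enzyme G6pc at 380 and 518 CPM in mutant and 558 and 577 CPM in wild type libraries. These lists were assembled from general knowledge with earlier results of these data known, and they are described without a test of the list.

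**Figure D5:**
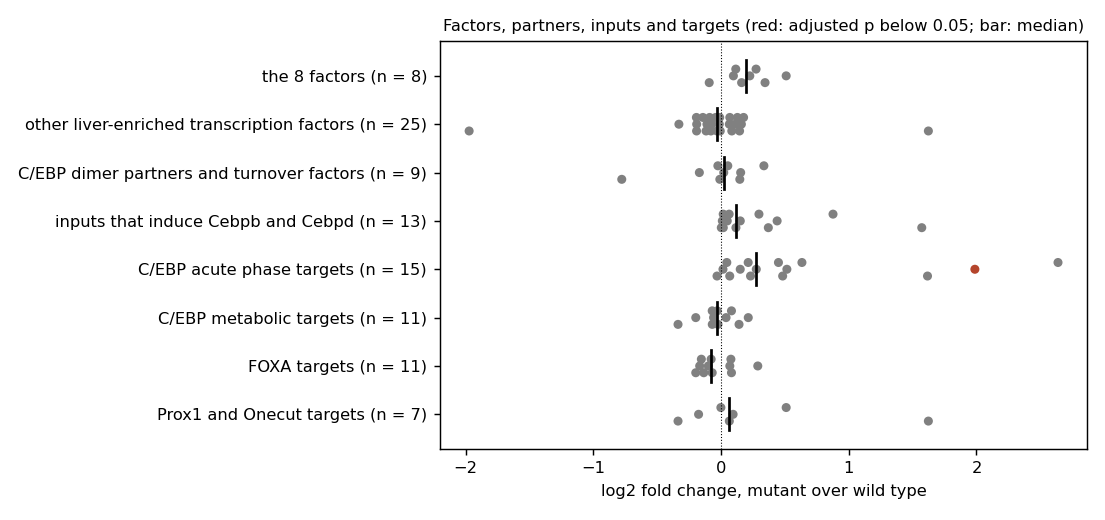
Log2 fold change, mutant over wild type, of the 8 factors and of the tested genes in each list of partners, inputs and targets; each point is a gene, the black bar the median, and red an edgeR adjusted p below 0.05. The medians run from −0.077 (FOXA targets) to 0.28 (C/EBP acute phase targets), and Orm2 is the red point.

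The C/EBP genes are also expressed in myeloid cells. Macrophage markers summed to 517 and 572 CPM in mutant libraries and 327 and 361 CPM in wild type libraries. All 10 lay above 0 in log2 fold change, against 49.7% of all tested genes. In edgeR 5 rose past the threshold, where 0.280% of all tested genes did. DESeq2 called 8 of the 10 and limma-voom 1, against 0.764% and 0.0478% of all tested genes. The Kupffer cell gene Cd5l rose, at 96.2 and 119 CPM in mutant and 61.4 and 67.8 CPM in wild type libraries (edgeR adjusted p = 0.0226), and Mpeg1 was at 104 and 101 CPM in mutant and 58.3 and 78.4 CPM in wild type libraries (edgeR adjusted p = 0.188). Neutrophil markers summed to 4.10 and 3.86 CPM in mutant and 2.68 and 3.45 CPM in wild type libraries. Of 3 tested, edgeR, DESeq2 and limma-voom called 0, while 2 had an unadjusted p below 0.05 in edgeR, against 6.19% of all tested genes. Erythroid markers summed to 296 and 334 CPM in mutant and 239 and 266 CPM in wild type libraries. All 5 tested lay above 0 in log2 fold change, against 49.7% of all tested genes. In 4 both mutant libraries lay above both wild type libraries, against 17.0% of all tested genes. In edgeR 1 rose, the globin gene Hbb-bt (adjusted p = 0.0145), named after its values were seen. DESeq2 called 1 and limma-voom 0. The part of these cells in the values of Cebpa, Cebpb, Cebpd, Il1b, Socs3 and the acute phase targets was not tested.

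For members that spanned at least 0.5 on the log2 scale over the 4 libraries, the tested genes of nearest pattern were found as those with the smallest root mean square difference in centred log2 CPM. Over these 4 libraries Foxa2 was nearest to Inpp5d (difference 0.015) and Tiparp (0.041), Cebpb to Nqo1 (0.026) and Bco1 (0.028), and Onecut2 to Adh7 (0.032) and Stard9 (0.040), out of 8946 candidates. A likeness over 4 libraries is a description.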

How the data were processed

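Poly(A) RNA of liver was sequenced from libraries made with a TruSeq kit, in paired reads of 150 bases, per the labels' protocols. The authors deposited whole-number counts of reads for Ensembl genes, with a file for each library; the submitters' processing notes name TopHat2 2.1.1, HTSeq 0.6.0 and mm10, without their settings or the annotation release. Symbols (35533 of 37315 identifiers), exon lengths and overlaps came from GENCODE annotation of that build, and promoter windows from RefSeq.

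Genes kept by filterByExpr (minimum count of 10) were scaled by TMM and tested with edgeR 4.0.16 (glmQLFit with robust estimation, glmQLFTest, group as the only term, R 4.3.3), with Benjamini-Hochberg adjustment over all 14657 genes tested and a threshold of 0.05. SE is the log2 fold change over the root of F. Between libraries 3 counts amount to 0.0313 to 0.0408 CPM, and this limit, like the Poisson intervals, reflects counting error alone. No library repeated another: chi-square divided by genes was 57.5 to 100.4 for the pairs of libraries, well above sampling noise. Of these steps only the edgeR fit was run on simulated counts with set fold changes. Levels per kb, paralog shares and the motif search were not tested in this way. Alternatives were RLE and upper-quartile scaling, other filters, DESeq2 1.42.0, limma-voom (limma 3.58.1), no robust estimation, a replicate block, other lengths and each library left out.

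The members and the lists were chosen with earlier results of these data known. Named genes are the 8 members, Foxo1, from each list of partners, inputs and targets up to 4 past the threshold or, with none, the 2 of highest mean CPM, from cell type lists the 2 of highest mean CPM and pancreatic markers at 0 in every library, plus those said to be named after their values were seen.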

Additional observations from a re-analysis of the deposited data

How the results depend on the processing

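No member passed the threshold under RLE or upper-quartile scaling, a filter of 1 CPM in 2 libraries, DESeq2 or limma-voom. None passed in edgeR without robust estimation, or in the main edgeR fit at an adjusted p below 0.1. Foxa2 lay under 0.1 in DESeq2 (adjusted p = 0.0527). With no filter 2 members passed, Foxa2 and Onecut2, in a setting where 258 of all 23104 genes did, against 50 of 14657 in the main fit. Of 96 log2 fold changes of members under alternatives, 88 kept direction and side of the threshold, 2 passed and 6 reversed. All 6 reversals came with a library left out, where the log2 fold change ranged from −0.042 to 0.24 for Foxa1, from −0.11 to 0.38 for Foxa3, from −0.021 to 0.44 for Cebpb and from −0.24 to 0.081 for Cebpd. That of Foxa2 ranged from 0.36 to 0.64, that of Cebpa from 0.13 to 0.19, that of Onecut2 from 0.10 to 0.55 and that of Prox1 from 0.14 to 0.43. Over all genes, 50 passed, against 258 with no filter, 24 with 1 CPM in 2 libraries, 112 with DESeq2, 7 with limma-voom, 8 without robust estimation, and 3 to 17 with a library left out (3 without mutant replicate 1); the cause was not tested. With the replicate number as a block 111 genes passed and no member did (Foxa2 adjusted p = 0.0599); the numbers are shared by name only, and deviations of same-numbered libraries correlated at −0.00720 across genes. Per coding length 3 of 8 members kept their rank, since untranslated exon is left out of the divisor. The difference in Foxa2 share of the FOXA level ranged from 2.78 to 9.99 percentage points with a library left out. Of 56 levels per kb under alternatives 8 moved. A fit with a library left out takes the lone library of its group to vary like the other group. Counting error weighs most on Cebpd, whose lowest library held 192 counts.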
